A study of Caenorhabditis elegans with 80 samples.

Results

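The cadmium and acrylamide responses of Caenorhabditis elegans were set against each other after 4 h of exposure, gene by gene, as the change with cadmium minus the change with acrylamide. The comparison used 12 of the 80 arrays of the series, namely 3 replicates each of worms at 50 mg/L cadmium, of the cadmium series' unexposed control, of worms at 1000 mg/L acrylamide, and of the acrylamide series' unexposed control. All 12 samples were whole worms, synchronised by bleaching, grown without bacteria in CeHR medium and exposed from the middle of the L4 larval stage, and the labels give no strain. RNA with a poly(A) tail was read as biotin-labelled cRNA, 1 array per sample. Whether replicates came from separate cultures is not stated in the labels, and the p values cover only variation among the arrays at hand, part of which may be technical. The 2 doses are the highest of each series and are not matched in mass or in toxicity, so each value below compares these 2 exposures rather than the 2 chemicals in general.

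Cadmium is a metal that binds thiols and displaces zinc, and worms meet it with metallothioneins, small cysteine-rich proteins that bind metal, and with chaperones for damaged proteins. Acrylamide is an electrophile that reacts with cysteine thiols. Electrophiles are met by SKN-1, the worm's counterpart of the mammalian Nrf transcription factors, which drives genes of glutathione synthesis and of conjugation, the coupling of glutathione or sugars to foreign compounds.

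The difference passed the test for 297 of 13643 genes (2.18%). A positive difference, called higher with cadmium here, was found for 132 genes (0.968%) and a negative one, called lower with cadmium, for 165 (1.21%). Values are log2 changes of the MAS5 signal, a linear brightness per probe set, after each array was scaled to a shared median of 202.9 and 51 was added. The test was limma's moderated test in 1 fit of all 80 arrays, with Benjamini-Hochberg adjustment over 17855 probe sets and a call at an adjusted p under 0.05, and it called 363 probe sets (2.03%), 166 higher (0.93%) and 197 lower (1.1%). Which side held more calls was not stable: it was 177 higher and 142 lower without cadmium replicate 3, 167 and 144 under the authors' scaling, and 116 and 87 when only the 12 arrays were fitted. Each gene was then read by 1 probe set. Over all genes the median difference was -0.06 and the median standard error (SE) of a difference was 0.37, and the smallest difference that was called was 0.84. The size of a called difference was 1.82 at the median. With each array set against the mean of its own controls, the 3 cadmium arrays lay on one side of the 3 acrylamide arrays in all 297 genes, which their selection on these arrays largely fixed (18.8% of all genes tested were so separated).

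Each chemical alone called more genes than the difference between them. A difference of 2 effects has a larger SE than either effect (for mtl-1, 0.46 against 0.33 for each). Fewer calls for the difference therefore do not by themselves show shared responses. Against its own control, cadmium changed 1582 genes (11.6%), 547 higher (4.01%) and 1035 lower (7.59%), and acrylamide changed 974 (7.14%), 505 higher (3.7%) and 469 lower (3.44%). In probe sets these were 1982 with cadmium (11.1%; 3.84% higher, 7.26% lower) and 1234 with acrylamide (6.91%; 3.51% higher, 3.4% lower). The balance of the cadmium calls depended on 1 array and on the scaling: 686 probe sets were higher and 1296 lower, against 573 and 439 without cadmium replicate 3 and 1099 and 551 under the authors' scaling. Both chemicals changed 458 genes in the same direction, 175 up and 283 down, and the difference was called in 31 of these. Another 29 genes were changed in opposite directions, and the difference was called in all 29. That was largely fixed in advance, since opposite effects add up in the difference. Of the 1582 genes that only 1 of the chemicals changed, the difference itself was called in 230, so a call with one chemical and none with the other did not by itself show that the responses differed. Across genes the 2 sets of changes correlated with a Pearson r of 0.56 (Spearman 0.55), a description over genes that share arrays. The 2 unexposed controls, harvested at 4 h in separate series, differed in 0 of 17855 probe sets by limma, with 710 at an unadjusted p under 0.05, and in 0 when only the 12 arrays were fitted, with 604 at that p.

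The 132 genes higher with cadmium were mostly genes called higher with cadmium and not called higher with acrylamide. In 82 of them cadmium was called higher and acrylamide was not called, in 19 cadmium was higher and acrylamide lower, and in 20 acrylamide was lower and cadmium not called. The 165 genes lower with cadmium were mostly genes that acrylamide raised. In 95 of those acrylamide was called higher and cadmium was not called, in 20 both chemicals raised the gene and acrylamide raised it more, and in 10 acrylamide raised it while cadmium lowered it. In 33 cadmium was called lower and acrylamide was not called. The plot of the 2 effects shows these groups as arms off the diagonal.

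**Figure D1:**
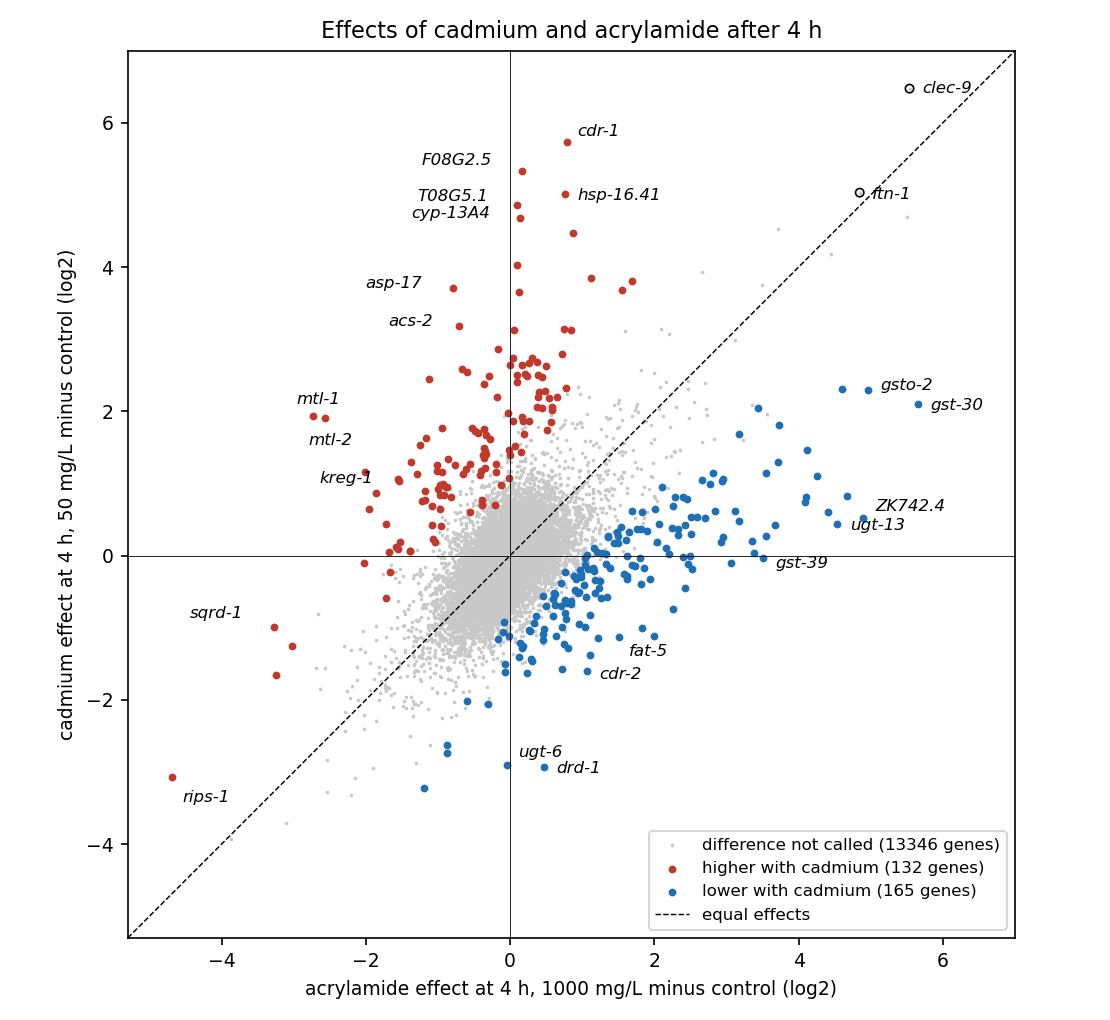
Change of each of 13643 genes with 50 mg/L cadmium (y axis, log2) against its change with 1000 mg/L acrylamide (x axis, log2), both at 4 h and each against its own control. Red points are the 132 genes higher with cadmium, blue points the 165 genes lower with cadmium and grey points the rest; open circles mark clec-9 and ftn-1, which both chemicals raised without a called difference.

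The arrays limit these results in 2 ways. Replicate 3 of the cadmium-exposed worms had a median signal of 282, against 171 to 228 in the other 11 arrays, and after scaling 65.4% of its probe sets exceeded a signal of 131, against 58.5% to 63.4%. Without it 233 of the 297 genes were still called in the same direction, and the probe sets changed by cadmium went from 1982 to 1012. Replicate 3 of the acrylamide control had raised levels of several genes that acrylamide raises, given beside them below; without it 243 of the 297 were still called. The log2 ratio of 3' to 5' actin probe sets, which reads RNA integrity, was 1.07 ± 0.308 (SD, n = 3) in cadmium-exposed worms, 0.645 ± 0.184 in their controls, 0.933 ± 0.374 in acrylamide-exposed worms and 0.864 ± 0.25 in theirs, and with it as a covariate 266 of the 297 were still called. Its part in the remaining differences was not tested.

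Metal-binding and cadmium-response genes were called in both directions. Of 10 tested genes of the metallothionein and cadmium-response list, 4 were higher with cadmium (mtl-1, mtl-2, cdr-1 and kreg-1) and 1 was lower (cdr-2). That was 50.0% of the list against 2.18% of all genes, with a median difference of 0.32 against -0.06 over all genes. The 2 metallothionein genes, on chromosome V, were moved in opposite directions by the 2 chemicals. The signal of mtl-1 was 17060.1, 13136 and 8015 in the 3 cadmium replicates and 4148, 3064 and 2460.4 in their controls. In the acrylamide replicates it was 223, 329.9 and 397, against 2391, 2792 and 1927 in their controls. Every cadmium array stood above every other array of the comparison and every acrylamide array below, so no group overlapped its control. The change was 1.93 with cadmium (adjusted p = 1.3e-05) and -2.73 with acrylamide (adjusted p = 2.1e-09), a difference of 4.66 (SE 0.46, adjusted p = 4.4e-11), which is 25.4-fold. mtl-2, read by a probe set whose suffix warns of possible cross-hybridisation, gave 1.91 with cadmium and -2.57 with acrylamide (difference 4.47, SE 0.52, adjusted p = 2.6e-09).

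cdr-1, a cadmium-responsive gene with a glutathione S-transferase fold, rose with cadmium. Its signal was 13503, 11251 and 8503 with cadmium, and 344, 44.5 and 179 in controls. With acrylamide it was 278, 457 and 503, against 136, 293 and 225. The cadmium arrays lay far above all others, and the acrylamide arrays overlapped their controls. The change was 5.73 with cadmium (53.2-fold, adjusted p = 1.5e-18) and 0.79 with acrylamide (adjusted p = 0.25), a difference of 4.94 (SE 0.54, adjusted p = 5.2e-10). Its relative cdr-2 went the other way: the signal was 209, 346 and 144 with cadmium against 1023, 821 and 545 in controls, and 2225, 1609 and 1802 with acrylamide against 1314, 684 and 706. Neither exposed group overlapped its controls: cadmium lowered it (-1.6, adjusted p = 8.3e-05), acrylamide raised it (1.07, adjusted p = 0.016), and the difference was -2.67 (SE 0.43, adjusted p = 1.1e-05). A further relative, cdr-4, rose with both chemicals (3.75 and 3.49) and its difference of 0.26 did not pass. For kreg-1, named for its regulation by the stress kinase KGB-1, the change was 1.06 with cadmium (adjusted p = 0.094) and -1.55 with acrylamide (adjusted p = 0.011), and the difference was 2.61 (SE 0.6, adjusted p = 0.0041). The signal of kreg-1 after acrylamide, 5.6, 10.9 and 9.88, was far under the added 51, and without that addition the difference was 5.14.

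Of 19 tested zinc, iron, copper and heme genes 2 were higher with cadmium (10.5%, against 2.18% of all genes called) and 0 lower, with a median of 0.14. Both are zinc transporter genes. cdf-2, which moves zinc into lysosome-related granules, rose with cadmium (2.41, adjusted p = 2.4e-10) and did not pass with acrylamide (0.09), a difference of 2.31 (SE 0.38, adjusted p = 1.7e-05). Its signal was 5482, 4796 and 3094 with cadmium and between 488 and 919 in all 9 other arrays. ttm-1, another zinc exporter gene, gave a difference of 2.00 (SE 0.35, adjusted p = 7.6e-05), but 1 of its 3 probe sets, all suffixed for cross-hybridisation, gave 1.00 (adjusted p = 0.16). The genes of the list with no called difference include the zinc-sensor receptor gene hizr-1 (1.02) and the zinc importer gene zipt-2.3 (1.20). In the same list ftn-1, an intestinal ferritin gene that stores iron, rose with both chemicals by nearly equal amounts: 15287, 11030.4 and 8273 with cadmium against 340, 299 and 244, and 10566, 16746 and 17231 with acrylamide against 254, 279.7 and 1229.7. The difference was 0.18 with a 95% interval from -0.72 to 1.09 (adjusted p = 0.98), and -0.49 without the third acrylamide control, whose level was raised. At 8 h the difference for ftn-1 was -1.61 (adjusted p = 0.033).

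Of the small heat shock chaperones, which hold unfolding proteins, hsp-16.2 and hsp-16.41 were raised by cadmium and not called with acrylamide. Of 18 cytosolic heat shock genes 4 were higher with cadmium (22.2%, against 2.18% of all genes called) and 0 were lower. The median of the list, 0.16, lay near the -0.06 of all genes. The signal of hsp-16.41 was 7078, 5341 and 3882 with cadmium against 86.5, 89 and 179.6, and 374, 570.4 and 458 with acrylamide against 104, 441 and 313. The acrylamide arrays overlapped their controls, and the cadmium arrays did not overlap any other. The change was 5.02 with cadmium (adjusted p = 2.2e-09) and 0.76 with acrylamide (adjusted p = 0.57), a difference of 4.26 (SE 0.84, adjusted p = 0.00059). Its neighbour hsp-16.2 gave 3.6 (SE 0.67, adjusted p = 0.00021). The near-identical copies hsp-16.1, hsp-16.11, hsp-16.48 and hsp-16.49 had no probe set of their own, so these 2 readings may include them. hsp-70, an inducible chaperone gene read by a cross-hybridising probe set, gave 2.4 (SE 0.57, adjusted p = 0.0068), and hsp-17 gave 1.57 (adjusted p = 0.03), a call that was lost in 10 of the alternatives, including the fit of the 12 arrays alone (adjusted p = 0.17). The constitutive chaperone genes hsp-1 (-0.28) and hsp-90 (-0.15) and the heat shock factor gene hsf-1 (-0.1) had no called difference. In the unfolded protein response of the endoplasmic reticulum, 1 of 17 genes was called (5.9%): ckb-2, a choline kinase gene, at 1.55 (SE 0.4, adjusted p = 0.015), lost when only the 12 arrays were fitted (adjusted p = 0.082). hsp-4, the reporter gene of that response, had a difference of 0.84 (95% interval 0.22 to 1.45, adjusted p = 0.24), which was called under the authors' scaling (0.97, adjusted p = 0.024), with quantile normalization (1.11, adjusted p = 0.0064) and without cadmium replicate 3 (1.11, adjusted p = 0.037). No gene of the 10 in the mitochondrial response was called; hsp-6 gave -0.41 (95% interval -1.13 to 0.31).

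**Figure D2:**
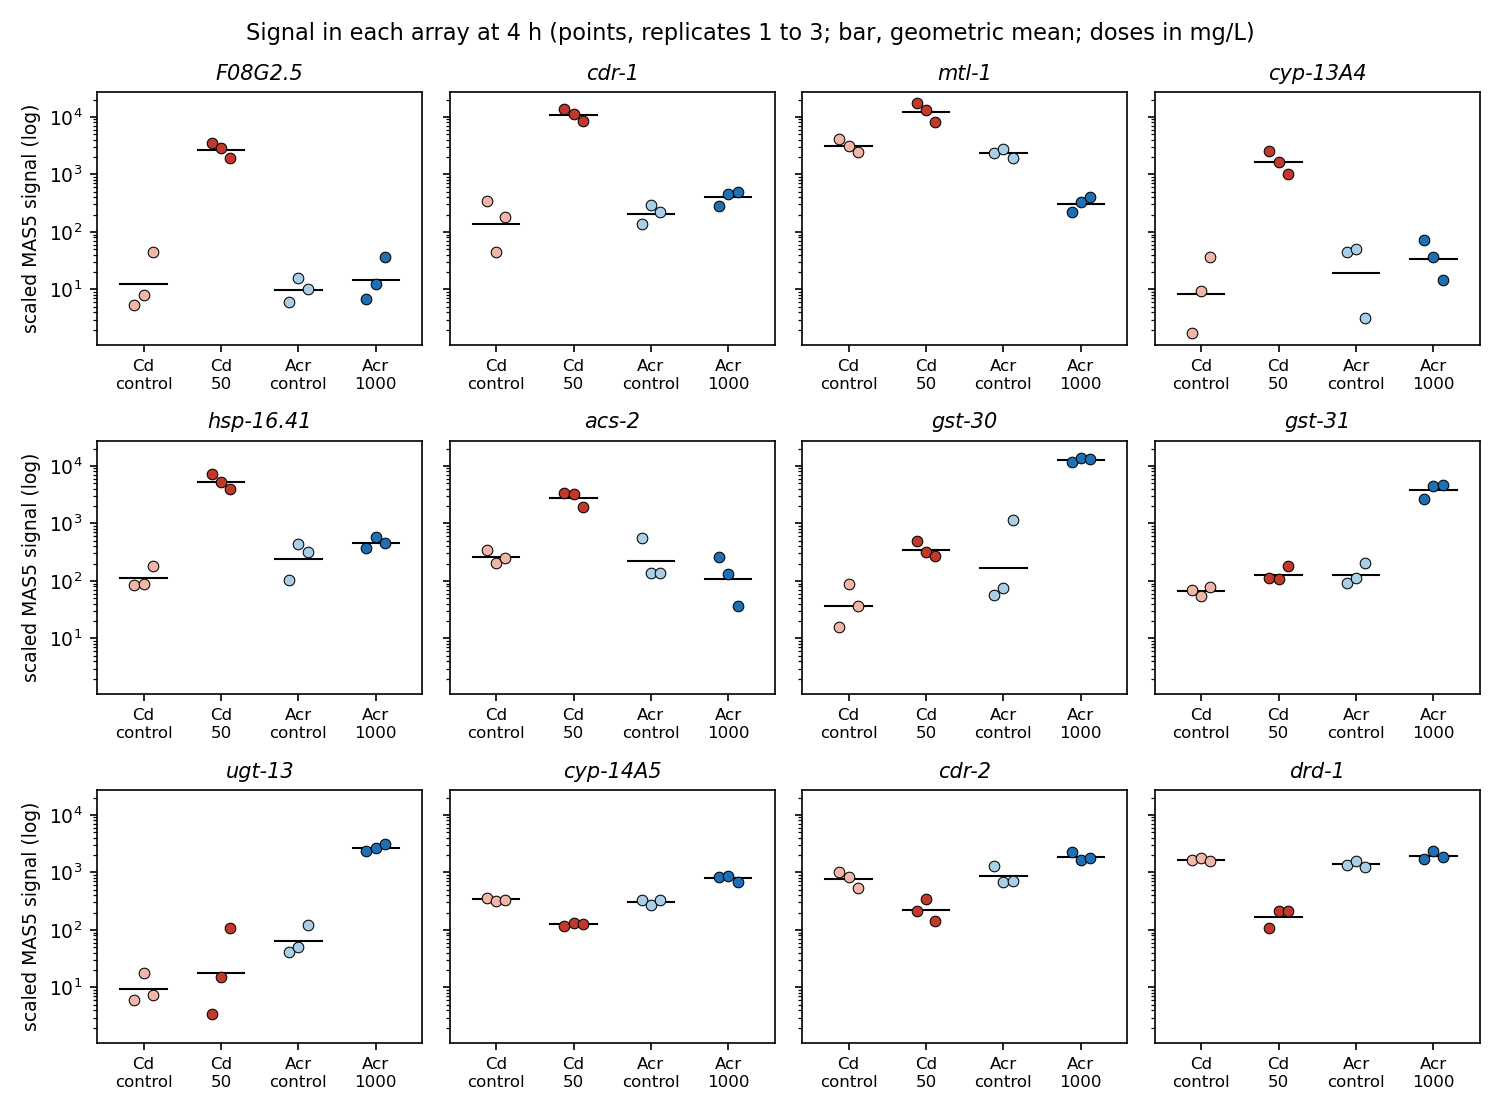
Median-scaled MAS5 signal (y axis, log scale) of 12 genes in each of the 12 arrays, grouped along the x axis as cadmium control, 50 mg/L cadmium, acrylamide control and 1000 mg/L acrylamide; points are replicates and bars geometric means. F08G2.5, cdr-1, cyp-13A4, hsp-16.41 and acs-2 are high in the cadmium arrays, gst-30, gst-31 and ugt-13 in the acrylamide arrays, and mtl-1, cyp-14A5 and cdr-2 move in opposite directions.

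Beyond these families, several genes rose with cadmium from a level near the bottom of the scale. The gene with the largest difference was F08G2.5, of no function known here: 3522, 2876 and 1936 with cadmium against 5.29, 7.94 and 44.8, and 6.82, 12.4 and 37 with acrylamide against 6.06, 15.6 and 9.99. The difference was 5.17 (SE 0.55, adjusted p = 1.9e-10), and 7.19 without the added 51. T08G5.1, the neighbour of mtl-2 on chromosome V, gave 4.77 (SE 0.56, adjusted p = 3.3e-09), and 7.17 without the addition. These genes stood high in the cadmium arrays and low in the other 9, so their folds depend on the added constant. The cytochrome P450 gene cyp-13A4 (4.55, adjusted p = 5.4e-11) and the aspartyl protease gene asp-17 (4.51, adjusted p = 3.7e-10) behaved likewise, at 6.79 and 6.35 without it. Y37H2A.14 (3.94, adjusted p = 2.6e-09), which read 3631 to 4877 with cadmium and 144 to 339 elsewhere, did not depend on it by more than 1.5-fold. bcmo-2, which resembles carotenoid-cleaving oxygenases and was read by a cross-hybridising probe set, rose with cadmium (2.44) and fell with acrylamide (-1.12), a difference of 3.56 (SE 0.44, adjusted p = 1.3e-08), and 4.38 without the addition. acs-2, an acyl-CoA synthetase of fatty acid oxidation that fasting induces, read 3349, 3297 and 1914 with cadmium against 338, 201 and 248, and 258, 131 and 37 with acrylamide against 557, 135 and 138. The cadmium arrays stood above all others and the acrylamide arrays overlapped their controls. The difference was 3.89 (SE 0.56, adjusted p = 9.4e-07).

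Glutathione S-transferases, which attach glutathione to electrophiles, held the most called members of any list, nearly all on the acrylamide side. Of 41 tested, 14 were lower with cadmium and 1, gst-22, was higher (36.6% in all, against 2.18% of all genes). The median difference was -0.64 against -0.06 over all genes. Cadmium itself raised 15 of the 41 and lowered 5, and acrylamide raised 25 and lowered 5. gst-31 read 2649, 4389.9 and 4606 with acrylamide against 92, 112 and 203 in controls, and 110.2, 107 and 179.7 with cadmium against 69.3, 54.7 and 79.9. The acrylamide arrays stood above all others, while the cadmium change of 0.61 did not pass (adjusted p = 0.13). The difference was -3.79 (SE 0.38, adjusted p = 4.4e-11). gst-12 (-3.85, adjusted p = 5.4e-07), gst-39 (-3.53, adjusted p = 5.3e-09) and gst-40 (-3.28, adjusted p = 4.9e-12) were like it; in gst-12 the third cadmium array read 545 against 62.6 and 92.4 in the others, and without it the difference was -4.59. gst-14 (-3.16), gst-2 (-3.16) and gst-13 (-2.88) were called higher with acrylamide and not called with cadmium.

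In a smaller set both chemicals raised the transferase, acrylamide more. gst-30 read 11525, 13712 and 13056 with acrylamide against 57, 74.8 and 1149, and 493, 322 and 266 with cadmium against 15.5, 89.6 and 36. Each exposed group lay above all of its controls. The change was 5.66 with acrylamide and 2.1 with cadmium, a difference of -3.55 (SE 0.67, adjusted p = 0.00028). Without the third acrylamide control, which read 1149, it was -4.67; the call was lost without the added 51 (-2.99, adjusted p = 0.094) and when only the 12 arrays were fitted (adjusted p = 0.088). gsto-2, an omega-class transferase gene, gave 4.96 and 2.3 (difference -2.66), and gst-5 gave 4.12 and 1.46 (difference -2.66). gst-4, widely used to report SKN-1 activity, rose with both, by 2.29 and 1.44, and its difference of -0.85 (95% interval -1.61 to -0.1) did not pass (adjusted p = 0.47). gst-38 rose by 4.53 with cadmium and 3.72 with acrylamide, a difference of 0.81 (95% interval -0.21 to 1.82).

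The list of SKN-1 control and glutathione synthesis genes, which shares gst-4, gst-12, gst-30, gst-38, gsto-1 and gsto-2 with the transferases, had 9 of 19 lower with cadmium (47.4%, against 2.18% of all genes called) and 0 higher, with a median of -1.16. The list's acrylamide calls were 14 higher and its cadmium calls 10 higher, with 0 lower for either. Called members were gst-12, gst-30 and gsto-2 and, beside the transferases, ugt-13, nit-1, sdz-8, wdr-23, gss-1 and gsr-1. The nitrilase gene nit-1 read 3439, 4529 and 6665 with acrylamide against 313, 326 and 437, and 823, 748 and 549 with cadmium against 290, 361 and 228. Each exposed group lay above its controls, and the acrylamide arrays above the cadmium arrays. The changes were 3.55 and 1.14, with a difference of -2.41 (SE 0.28, adjusted p = 4.3e-09). wdr-23, whose product represses SKN-1, was raised by 2.39 with acrylamide and 0.81 with cadmium (difference -1.58). gss-1, glutathione synthetase, was raised by acrylamide (1.07) and not called with cadmium (-0.19), and gsr-1, glutathione reductase, was raised by both (2.11 and 0.95), with differences of -1.27 and -1.16. gcs-1, the rate-limiting enzyme of glutathione synthesis, had a difference of -0.88 (95% interval -1.57 to -0.19, adjusted p = 0.32); a second probe set of it gave -1.58 (adjusted p = 0.00045), so its call depended on the probe set. skn-1 itself had no called difference (0.05). The lists were drawn up with earlier results on these samples known, so these counts are not independent evidence of a direction.

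UDP-glucuronosyltransferases, which add sugar groups to foreign compounds, were split between the chemicals. Of 57, 10 were lower with cadmium and 3 higher (22.8% in all, against 2.18% of all genes), with a median of -0.43. ugt-13 read 2339, 2619.8 and 3112 with acrylamide against 41.8, 50.6 and 121, and 3.44, 15 and 109.9 with cadmium against 6.01, 17.8 and 7.45. Only the acrylamide arrays were clear of background, and the difference was -4.09 (SE 0.44, adjusted p = 4.1e-10). The 3 that were higher with cadmium were ugt-41 (3.02, SE 0.52, adjusted p = 4.5e-05), ugt-16 (2.75, SE 0.49, adjusted p = 1e-04) and ugt-1 (2.32), and acrylamide changed none of the 3 by a called amount. ugt-6 (-2.87, adjusted p = 0.00048), read by a cross-hybridising probe set, was lower for the other reason: cadmium lowered it by 2.91 (the values were 258, 256 and 266 against 2197, 2305 and 2354) and acrylamide left it at -0.04. Cytochromes P450, enzymes that oxidise foreign compounds and lipids, were divided too: 3 of 52 were higher with cadmium, cyp-13A4, cyp-14A4 (2.73, adjusted p = 5.4e-05, lost without the added 51) and cyp-33C7 (2.11, adjusted p = 0.002), and 5 were lower (15.4% in all). The largest difference among the 5 was that of cyp-14A5, also read by a cross-hybridising probe set, which cadmium lowered (132 at most against 324 at least) and acrylamide raised (833, 859 and 691 against 325, 273 and 332), at -2.36 (SE 0.27, adjusted p = 2e-09). Among ABC transporters, pumps that expel drugs and conjugates, 2 of 48 were higher with cadmium, pgp-9 (2.13, adjusted p = 2e-04) and mrp-4 (1.11, adjusted p = 0.012), and 1 lower, mrp-1 (-1.89, adjusted p = 0.00015), which was raised by acrylamide (1.74) and not called with cadmium (-0.15). A second probe set of mrp-4 gave 0.44 (adjusted p = 0.88). In all 6.2% of the ABC transporters were called, against 2.18% of all genes.

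**Figure D3:**
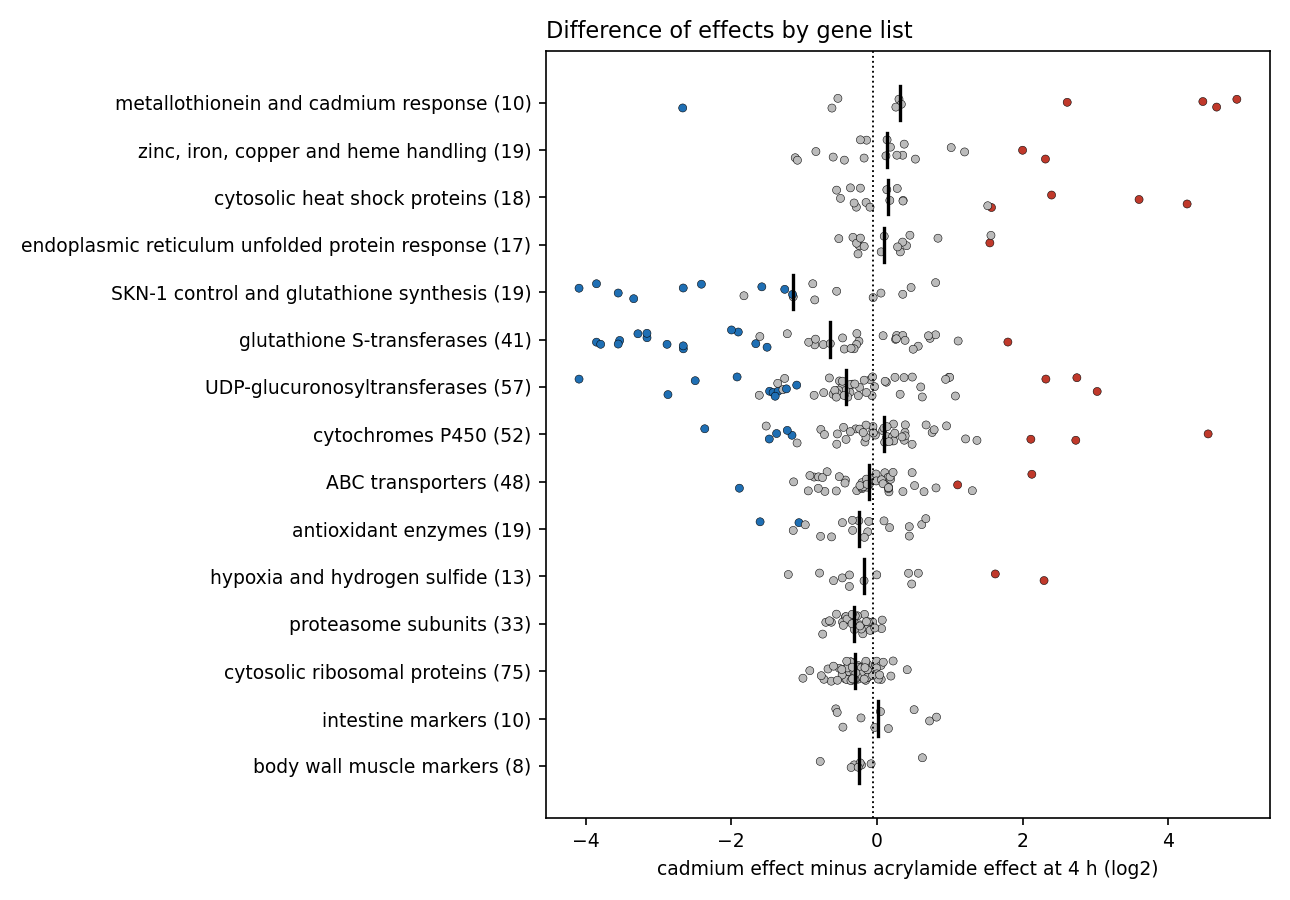
Difference of the 2 effects (cadmium minus acrylamide, log2, x axis) for each tested gene of 15 lists, with the number tested in brackets; red points were called higher, blue points lower and grey points not called, black bars are list medians and the dotted line the median of all genes. Glutathione S-transferases and the SKN-1 list reach to -3.85 and -4.09, and proteasome and ribosomal protein genes hold no called member.

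Of 19 antioxidant enzyme genes 2 were lower with cadmium (10.5%, against 2.18% of all genes called) and 0 higher: gpx-1 (-1.07, adjusted p = 0.019), a peroxidase gene, and sod-1 (-1.60, adjusted p = 0.029), the cytosolic superoxide dismutase gene, and both calls were lost in the fit of the 12 arrays alone (adjusted p = 0.45 and 0.12). The mitochondrial sod-3, a common reporter of stress, had a difference of 0.44 (95% interval -0.27 to 1.16, adjusted p = 0.92). In the hypoxia and hydrogen sulfide list, 2 of 13 were higher with cadmium (15.4%), and both were lowered by both chemicals, acrylamide more. sqrd-1, a mitochondrial enzyme that oxidises sulfide, read 748, 701 and 389 with cadmium against 1628, 1091 and 1019, and 73.9, 78.6 and 50.2 with acrylamide against 1129, 929 and 1246. All 4 groups were apart except the 2 controls, and the difference was 2.29 (SE 0.33, adjusted p = 1.1e-06; 2.99 without the added 51). rips-1, of the same sulfide response, fell by 3.07 and by 4.69, a difference of 1.63 (adjusted p = 0.034) that was lost in 9 alternatives.

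Immune and lysosomal genes were called in both directions. spp-18, a saposin-like gene, was lowered by acrylamide (-1.96) and not called with cadmium (0.65), a difference of 2.61 (SE 0.36, adjusted p = 4.5e-07). In the lysozymes and saposin-like proteins 2 of 28 were higher with cadmium and 2 lower (14.3% in all). The neighbouring invertebrate lysozyme genes ilys-2 (-1.78) and ilys-3 (-1.45) were lower, and their calls were lost in 13 and 11 alternatives. Of 136 C-type lectin genes, which bind sugars, 3 were higher with cadmium and 1 was lower (2.9% in all, near the 2.18% of all genes). clec-67 gave 2.21 (SE 0.47, adjusted p = 0.0014), while clec-12 and clec-72 lost the call when any of several arrays was left out. clec-9 rose by 6.47 with cadmium and 5.54 with acrylamide, and its difference of 0.94 (95% interval -0.35 to 2.22) did not pass; without the third acrylamide control it was 0.25. The nuclear hormone receptor genes, a large family of ligand-gated transcription factors, had 1 of 183 higher and 3 lower (2.2% in all, near the 2.18% of all genes). No proteasome, ribosomal protein, cell cycle, vitellogenin, major sperm protein, astacin or moulting gene had a called difference, where 2.18% of all genes had one.

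Markers of other cell types did not differ between the chemicals by a called amount. No member of the intestine, body wall muscle, neuron, epidermis or germline lists was called (10, 8, 10, 8 and 14 tested). At the 2.18% called over all genes, lists this short would hold few calls or none. The summed signal of 8 muscle markers was 16890 to 29031 with cadmium against 37297 to 43592 in controls, and 24936 to 28085 with acrylamide against 31316 to 50843. That of 10 intestine markers was 33649 to 54704 against 55815 to 71684 with cadmium, and 37302 to 48182 against 49976 to 68875 with acrylamide. On this median-scaled signal the sums of muscle and intestine markers were lower under both exposures, with all exposed arrays below all controls of their series. The intestine gaps were narrow, 54704 against 55815 with cadmium and 48182 against 49976 with acrylamide. Whether either separation holds under the authors' scaling was not tested. Bright genes weigh most in a sum. The median muscle marker changed by -0.82 with cadmium (5 called lower) and -0.49 with acrylamide (1 lower). The median intestine marker changed by -0.31 with cadmium (3 lower, 1 higher) and -0.08 with acrylamide (2 lower), where the median of all genes was -0.05 with acrylamide. The other lists moved differently: the neuron sum was 8374 to 11008 with acrylamide against 6407 to 7927, and 5512 to 8314 with cadmium against 6318 to 7563. The epidermis sum was 7051 to 13174 with cadmium against 15232 to 19626, and the germline sum 7328 to 11586 against 13417 to 13766, while with acrylamide both overlapped their controls (11779 to 15496 against 14117 to 15176, and 6163 to 9674 against 8532 to 18968). The part of these shifts in the differences was not tested. In whole worms, fewer cells of a type and less RNA per cell cannot be told apart.

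Of the 29 genes with opposite called effects, 19 were higher and 10 lower with cadmium. Beside mtl-1 and mtl-2, hmit-1.1, a myo-inositol transporter gene of the osmotic response, rose by 1.16 with cadmium and fell by 2.01 with acrylamide (difference 3.18, SE 0.55, adjusted p = 4.7e-05). lec-11, a galectin gene, gave 1.13 and -1.29. In the opposite direction fat-5, a delta-9 desaturase gene of fatty acid synthesis, read 998, 1236 and 799 with cadmium against 3006, 1980.3 and 1895, and 6324, 8079 and 7369 with acrylamide against 2846, 2148 and 2579. Neither exposed group overlapped its controls, and the difference was -2.64 (SE 0.54, adjusted p = 0.001). Of the 29 genes, those whose call was lost with the 12 arrays alone include zip-11 (2.08, adjusted p = 0.098), cpr-3 (1.96, adjusted p = 0.079) and T25B9.9 (-1.91, adjusted p = 0.082).

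Further genes were among the largest negative differences. ZK742.4, read by a cross-hybridising probe set, was raised by 4.89 with acrylamide, from 113, 68.8 and 306 to 3520.1, 7243 and 6932, and gave -4.36 (SE 0.45, adjusted p = 8.4e-11). sdz-8 (-3.34, adjusted p = 3.2e-07), F56D5.3 (-3.29, adjusted p = 7.4e-07) and C15A11.4 (-3.25, adjusted p = 1.2e-10) were raised by acrylamide to 17-fold, 17.2-fold and 12.8-fold of control and were not called with cadmium; the highest acrylamide control of each was the third array, at 1144, 469.7 and 1134. drd-1 was the exception among the 12 most negative, because cadmium lowered it: 109.9, 212 and 213 against 1645, 1752 and 1549, with acrylamide at 1679, 2353 and 1817 against 1343, 1569 and 1243. Its cadmium arrays stood below all others and its difference was -3.40 (SE 0.42, adjusted p = 2.4e-08).

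Called genes lay on all 6 chromosomes. On chromosome V 106 of 2992 genes were called (3.54%) and on chromosome I 18 of 2129 (0.85%), with II, III, IV and X at 2.21%, 1.2%, 2.74% and 1.84%. Over all genes 2.18% were called, and the spread between chromosomes was not tested. Of 9452 pairs of adjacent tested genes, 24 pairs were both called, 19 of them in the same direction. How many such pairs would arise without regard to position was not estimated, so these counts are not read as clustering. The 19 include hsp-16.2 with hsp-16.41, mtl-2 with T08G5.1, gst-12 with gst-14, gst-31 with gst-39 and gst-6 with gst-7. Opposite pairs include hsp-70 with cbl-1, ugt-15 with ugt-16 and ZK742.3 with ZK742.4. gst-12, gst-31 and gst-39 were read by probe sets without a cross-hybridisation suffix. Whether neighbouring transferases share some of their signal was not tested, for these or for the others named.

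The 8 h arrays were read for the same 297 genes. Their levels did not enter the 4 h difference, but they shared its filter and its estimate of the spread. At 8 h the cadmium minus acrylamide difference was called for 355 genes (2.6%), 232 higher (1.7%) and 123 lower (0.902%). In probe sets it was called for 2.42%. Of the 297, 290 had the same sign at 8 h and 177 were called in the same direction, 59.6% of the 4 h calls and 49.9% of the 8 h calls. The genes higher with cadmium at 4 h kept it more often: 131 of 132 had the same sign and 95 (72.0%) were called, with a median of 1.94 at 4 h and 2.06 at 8 h. Of the 165 lower genes 159 had the same sign and 82 (49.7%) were called, with medians of -1.66 and -1.23. The difference between these 2 shares was not tested. For all genes tested, the share with the same sign at both times is not given here. The 7 genes of opposite sign at 8 h were ttr-37, srw-91, dod-3, asp-13, acs-22, ugt-5 and cest-1.2. acs-2 went from 3.89 to 0.89 and drd-1 from -3.40 to -0.65, but the change between times was not called for either (adjusted p = 0.33 and 0.08 in limma).

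**Figure D4:**
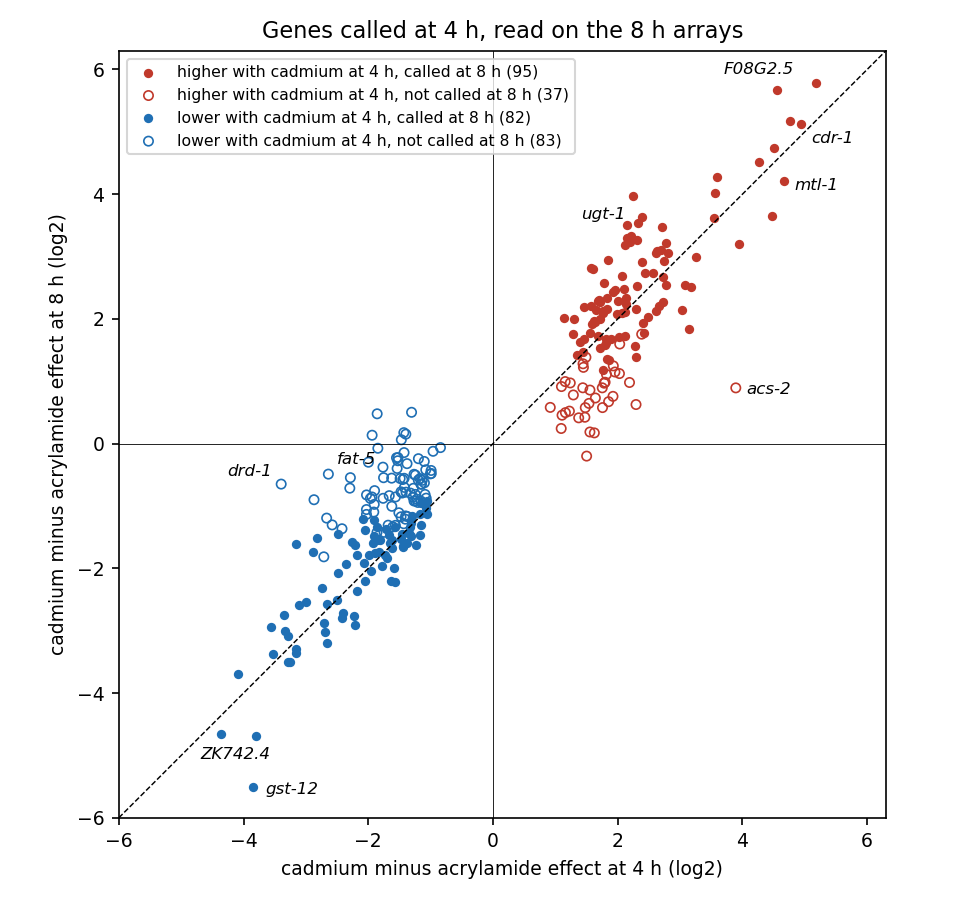
Cadmium minus acrylamide difference at 8 h (y axis, log2) against that at 4 h (x axis, log2) for the 297 genes called at 4 h; red genes were higher and blue genes lower with cadmium at 4 h, filled points were also called in the same direction at 8 h (95 and 82 genes) and the dashed line marks equal differences. acs-2 and drd-1 lie far from the dashed line.

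The lower doses, each set against the same control arrays as the high dose, show the shape behind the difference. cdr-1 had its full cadmium change at 5 mg/L already (5.92, SE 0.38; 6.29 at 20 mg/L, n = 2; 5.73 at 50 mg/L), as did cyp-13A4 (5.30, 4.32 and 4.68). F08G2.5 rose with dose (2.5, 4.28 and 5.33) and acs-2 was not called at the lowest (0.24, 2.12 and 3.19). The 2 arrays at 20 mg/L cadmium correlated at 0.831, below replicates of every other group (0.92 at the lowest), so values at that dose are less certain. With acrylamide at 100, 500 and 1000 mg/L, ugt-13 rose by 1.42, 3.85 and 4.54 and nit-1 by 1.5, 3.11 and 3.55. For mtl-1 acrylamide gave -0.82, -2.45 and -2.73. gst-30 with acrylamide gave 1.73 (adjusted p = 0.22), 5.33 and 5.66, and with cadmium 0.69 (adjusted p = 1), 3.03 and 2.1. At the lowest acrylamide dose the changes of mtl-1 and gst-30 did not pass, and that of ugt-13 did (adjusted p = 0.017).

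**Figure D5:**
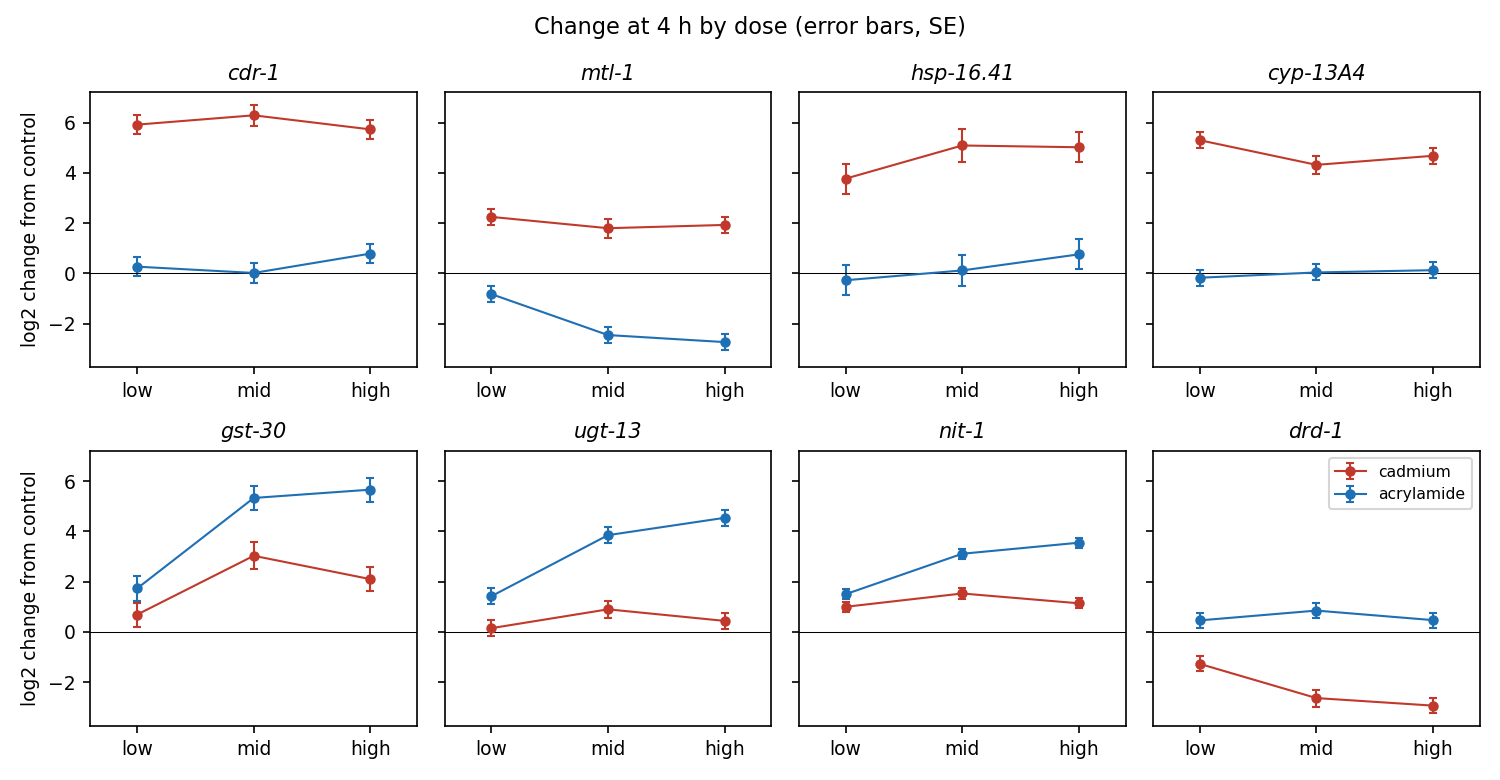
Change from control at 4 h (y axis, log2, error bars SE) at the low, mid and high dose (x axis) of cadmium (5, 20 and 50 mg/L, red) and acrylamide (100, 500 and 1000 mg/L, blue) for 8 genes; the doses share their control arrays and the mid cadmium dose has 2 arrays. cdr-1 and cyp-13A4 are at full size at 5 mg/L cadmium, and gst-30, ugt-13 and nit-1 rise with acrylamide dose.

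Mercury, another thiol-binding metal, was read in its own series at 25 mg/L and 4 h. Of the 132 genes higher with cadmium, mercury raised 57 and lowered 15, and of the 165 lower ones it raised 63 and lowered 38 (with mercury 12.8% of all genes were called, 5.92% higher and 6.91% lower). Single genes differed: F08G2.5, hsp-16.41 and kreg-1 rose with mercury (6.8, 6.19 and 5.18), mtl-1, cyp-13A4 and T08G5.1 did not pass (0.74, 0.55 and 0.04), and gst-30, ugt-13 and ZK742.4 rose (5.2, 3.91 and 3.76). These values describe mercury's own contrast and no test between the 3 chemicals was made.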

How the data were processed

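Whole-worm RNA was read on 80 expression arrays of 22625 probe sets. The deposited unit is intensity on a linear scale, which the authors had computed with MAS5 per the submitters' processing notes; the version, the scaling target and the genome build are not given in the sources used here. From these the 77 control probe sets were left out, each array was scaled to a median of 202.9, a pseudocount of 51 was added (20th percentile over the arrays) and log2 was taken. Probe sets above 131 (the 40th percentile) on at least 3 of the 80 arrays were tested (17855). Of 22548 probe sets 20766 carried 1 gene symbol, 887 several and 895 none; a gene was read by 1 probe set, the brightest without a cross-hybridisation suffix where it had one (13643 genes, 3342 by suffixed probe sets).

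Groups followed the sample titles. One limma fit (version 3.58.1, R 4.3.3) with a mean per group (27 groups, 53 residual degrees of freedom) and a variance trend gave the difference (cadmium high minus control) minus (acrylamide high minus control), adjusted by Benjamini-Hochberg and called under 0.05. The fit was tested on simulated data. Same-numbered replicates were not treated as pairs, since the labels do not say that they belong together. Their deviations correlated at 0.073 to 0.506. For cadmium replicate 1 and acrylamide replicate 2 another number correlated more (0.236 and 0.263). For the other replicates the same number correlated most, so a shared replicate effect is possible. Named genes were up to 12 of the largest called differences each way, up to 4 called members per list, and 19 genes fixed by name (numr-1 has no probe set of its own); all other genes named, including those with opposite or shared effects, were chosen after their values were seen. Besides those marked in the text, acs-22, asp-13, atf-4, cdr-4, cest-1.2, clec-61, cpr-3, dod-3, ftn-1, gss-1, hsf-1, hsp-4, lec-11, mrp-1, sod-1, ttm-1, ugt-5 and wdr-23 were read by suffixed probe sets. The members and lists were chosen with earlier results of these data known. Chromosomes and neighbours came from RefSeq; no coordinates are given, since the files name no build. Arrays carry no read depth; their number limits precision, and signals near or under 51 have little meaning as a ratio.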

Additional observations from a re-analysis of the deposited data

Results flagged for a closer look

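For H20E11.2 the cadmium minus acrylamide difference was -0.53 (SE 0.28) at 4 h and 1.82 (SE 0.28) at 8 h. The change from 4 h to 8 h was 2.35 (SE 0.39, limma adjusted p = 0.0023), with cadmium at 0.45 then 3.02 and acrylamide at 0.97 then 1.19. A probe set with no gene symbol and a cross-hybridisation suffix went from -0.46 to 2.64, a change of 3.09 (SE 0.58, adjusted p = 0.013). Both were picked out because their difference between the chemicals changed between the times by that test. They were the only 2 of 17855 probe sets called for it, with 644 (3.61%) at an unadjusted p under 0.05.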

How the results depend on the processing

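None of the 297 genes changed sign under an alternative fitted across all probe sets, of which the filter on the compared arrays kept 288 of the 297; other probe sets were read for some single genes only. The difference was called for 363 probe sets, and for 203 (116 higher, 87 lower) when only the 12 arrays were fitted, where 167 of the 297 genes were still called; cadmium alone then gave 1102 against 1982 and acrylamide 768 against 1234. Leaving out each replicate gave 286 to 360 probe sets for the difference, 1012 to 2533 for cadmium (1012 without cadmium replicate 3, 1095 without cadmium control replicate 1), 910 to 1310 for acrylamide and 332 to 407 for the 8 h difference, whose count with every replicate was 432. The replicate block gave 433 for the difference (296 of the 297 genes still called), 2764 for cadmium, 1643 for acrylamide and 515 at 8 h, each more than the main fit. Whether same-numbered samples belong together is not stated in the labels. The authors' scaling moved the split of cadmium calls from 686 higher and 1296 lower to 1099 and 551 and that of acrylamide calls from 627 and 607 to 712 and 381, and quantile normalization gave 938 and 866 for cadmium; the median difference of all probe sets went from -0.06 to 0.06 under the authors' scaling, and that of the cadmium change from -0.08 to 0.13.

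Single genes were followed for 99 genes, those of the naming rule and those with opposite or shared effects, not for every gene in the text: 18 moved by more than 1.5-fold without the added 51, and 26 of the called ones lost the call somewhere. Genes without a called difference that changed sign were D1086.3 (-0.57 to 0.04 over the replicates left out), aat-7 (0.17 without the added 51, -0.78 to 0.18 over the replicates left out), clec-61 (0.06 with quantile normalization, -0.35 to 0.1 over the replicates left out), ftn-1 (-0.49 to 0.55 over the replicates left out), hsp-6 (0.02 with its second probe set) and nas-27 (0.11 with quantile normalization, 0.36 with the actin ratio, -0.62 to 0.46 over the replicates left out). The cause was not tested.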

Other observations

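Some called genes outside the lists, chosen after their values were seen, belong to amino acid and cofactor metabolism. Acrylamide raised gclm-1, the modifier subunit of glutathione synthesis, by 1.94, gspd-1, the glucose-6-phosphate dehydrogenase that makes NADPH, by 1.62, the NAD kinase gene nadk-1 by 0.98, the pyridoxal kinase gene pdxk-1 by 2.4, and the cystathionine lyase-like gene cbl-1 by 2.33, none of them called with cadmium. Their differences were -2.27, -1.90, -1.28, -2.42 and -2.04. sams-1, S-adenosylmethionine synthetase, was lowered by cadmium by 1.43 and not called with acrylamide (0.29), a difference of -1.73 that was also called at 8 h (-1.79). The transcription factor gene atf-4 was raised by acrylamide (1.17) and not called with cadmium (-0.52).

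Among the genes that both chemicals lowered without a called difference were acox-1.2, an acyl-CoA oxidase gene (-3.71 with cadmium, -3.10 with acrylamide, difference -0.61, 95% interval -1.76 to 0.55), and nas-27, an astacin protease gene (-3.93 and -3.87). W06H8.2 rose with both (4.69 and 5.50), with a difference of -0.81; without the third acrylamide control, which read 1365, it was -2.04 and was called (adjusted p = 0.034). In the acrylamide control, replicate 3 was the highest of the 3 arrays for 46.4% of the 704 genes that acrylamide raised at 8 h, and for 27.9% of all genes. Acrylamide replicate 1 was the lowest of its 3 arrays for 58.9% of those 704 genes, and for 38.6% of all genes.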
